A study of Rattus norvegicus with 2 samples.

Results

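Many miRNAs have no promoter of their own. Their hairpins lie in introns of protein-coding genes and are cut out of the same primary transcript as the host mRNA, so the miRNA and its host can share transcriptional control. Processing of the hairpin, choice of the arm and turnover of the mature strand then set the level of each mature miRNA separately. The 10 miRNAs described here, out of 349 rat miRNAs with a probe on the array, were chosen by name as intronic miRNAs of protein-coding hosts: rno-miR-139-5p, rno-miR-153, rno-miR-326, rno-miR-335, both arms of rno-miR-342 (rno-miR-342-3p and rno-miR-342-5p), rno-miR-378, rno-miR-598-3p, rno-miR-664 and rno-miR-877, written without the prefix below. Of these, 7 (all but miR-139-5p, miR-326 and miR-342-3p) had been selected on the ratio between these same arrays in earlier work, so every ratio below is a description and none is a test.

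RNA came from the nucleus accumbens (NAc), core and shell together, a ventral striatal region that takes part in reward. The donors were male Sprague-Dawley rats weighing 150 to 180 g at the start. The vehicle group received 500 µl of saline and the alcohol group 1 g/kg of alcohol, each by intraperitoneal injection 2 times a day for 7 days. Each group is represented by 1 sample hybridised to 1 array, although the experiment comprised 18 rats, 9 in each group. Whether the RNA of several rats was combined on an array is not stated in the sources used here. Treatment and array therefore cannot be told apart, there is no replicate check, and an SD below covers the 9 repeat spots of a probe on the same array. In homogenised tissue, fewer cells of a type and less RNA per cell cannot be told apart either.

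The target sequences listed for the probes are shown because the seed, bases 2 to 8 in capitals, decides which mRNAs a miRNA pairs with, and because their base composition returns below.
miR-335: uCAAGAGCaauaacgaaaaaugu
miR-153: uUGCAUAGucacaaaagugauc
miR-598-3p: uACGUCAUcgucgucaucguua
miR-664: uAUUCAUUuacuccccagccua
miR-342-3p: uCUCACACagaaaucgcacccgu
miR-342-5p: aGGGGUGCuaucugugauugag
miR-378: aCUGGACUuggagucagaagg
miR-139-5p: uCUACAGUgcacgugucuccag
miR-326: cCUCUGGGcccuuccuccagu
miR-877: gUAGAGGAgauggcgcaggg
No seed was shared between members. Among the other probes of the array only miR-330, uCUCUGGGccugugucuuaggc, carried the seed of a member, that of miR-326.

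The host genes were read from RefSeq (GRCr8), in which 8 of the 10 target sequences matched a mature miRNA exactly. miR-139-5p (chr1:165290865-165290886, plus strand) lay inside Pde2a, which encodes a cyclic nucleotide phosphodiesterase. miR-153 (chr6:144306646-144306667, plus strand) lay inside Ptprn2, a membrane protein of dense-core vesicles. Both arms of miR-342, 5p (chr6:133329673-133329694) and 3p (chr6:133329715-133329737, plus strand), lay inside Evl, an actin regulator of the Ena/VASP family. miR-378 (chr18:57128925-57128945, minus strand) lay inside Ppargc1b, a transcriptional coactivator of mitochondrial genes. Each of these hosts was on the strand of its miRNA. miR-326 (chr1:163266224-163266244) lay inside Arrb1, a beta-arrestin, and miR-877 (chr20:2816284-2816303) inside Abcf1, a factor of translation initiation. The strand of these 2 hosts was not read here. The Mir598 gene lay within Xkr6. The annotation used gives where genes start and end and not their exons, so the intronic position itself was not read here. miR-335 was not matched, and its host is known as Mest, an imprinted gene.

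miR-664 had 2 loci, so its probe does not report a single host. One locus (chr13:99324687-99324708) lay inside Rab3gap2, a regulator of the vesicle GTPase Rab3, on the same strand. The other (chr18:48150403-48150424) lay in Snora36c, outside any protein-coding gene. miR-877 is known as a mirtron, a hairpin that is released by splicing instead of by Drosha. The RefSeq hairpin of miR-877 (85 bases, chr20:2816284-2816368, plus strand) starts with GU and ends with AG, the letters at the ends of a spliced intron, and is shown with the mature strand in capitals.
Mir877 hairpin: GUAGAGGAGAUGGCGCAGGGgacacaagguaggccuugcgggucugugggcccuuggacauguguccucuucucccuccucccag

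The brightness of a spot, its mean pixel density in arbitrary units, depends on the probe as well as on the RNA, so levels are compared between arrays and not between miRNAs. A spot counted as above background when it stood more than 3 median absolute deviations over the median of the 88 mismatched controls of its array, a limit of 278 for vehicle and 179 for alcohol. A miRNA was called detected with at least 5 such spots of 9. By this rule 9 of the 10 members were detected on both arrays, beside 150 of the 349 miRNAs, and miR-326 in the alcohol sample only. The mismatched control median was 241 in the vehicle sample and 145 in the alcohol sample, so a dim probe can have a lower raw density in the alcohol sample and still stand further above that array's own baseline.

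The tissue was checked against miRNAs known as markers. All 5 neuronal markers (miR-124, miR-9, miR-128, miR-138 and miR-132) were detected on both arrays, with a summed density of 105924 in the vehicle sample and 86447 in the alcohol sample. miR-9 gave 33523 and 26758 of these sums, with 1 of its 9 vehicle spots at 290. The leukocyte (miR-142-3p, miR-223), red cell (miR-144, miR-451) and epithelial (miR-200a, miR-200b, miR-200c) markers were detected on neither array. Of the muscle markers, miR-133a had 5 of 9 spots above the limit in the vehicle sample and 0 in the alcohol sample, and miR-1 and miR-206 were detected on neither. The liver marker miR-122 was detected on both, at 611 in the vehicle sample and 286 in the alcohol sample. The endothelial marker miR-126 was at 6104 and 7856. Of the 2 oligodendrocyte markers, miR-338 was at 252 in the vehicle sample, with 0 of 9 spots above the limit, and at 847 in the alcohol sample, and miR-219-5p was at 262 and 222. Both were undetected in the vehicle sample and detected with 9 of 9 spots in the alcohol sample, and their summed density was 513 and 1069. Above the mismatched control median miR-219-5p was at 20.7 and 77.6, and miR-338 at 10.6 and 702. miR-338*, the opposite arm of the miR-338 hairpin, was detected in both, with a log2 ratio of -0.72 after the normalization below and 0.44 without it. miR-219-2-3p, from a miR-219 hairpin, was also detected in both, with a log2 ratio of -0.25 after that normalization. The part of oligodendrocyte RNA in the ratios below was not tested.

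Densities were corrected for background and put on a common scale with cyclic loess, and ratios are given as log2 of alcohol over vehicle on that scale. The filter kept miRNAs detected in at least 1 sample whose brighter normalized signal reached 400, and a call was made from 1.3-fold on. Of the 10 members 9 passed. Of these, 4 were higher in the alcohol sample (miR-335, miR-153, miR-598-3p and miR-664), 3 were lower (miR-877, miR-342-5p and miR-378), and miR-139-5p and miR-342-3p were within 1.3-fold. Over all 125 miRNAs that passed, 26.4% were called higher and 20.8% lower. Since some members were listed for these very ratios, nothing is read from their share. A stricter 1.5-fold left 2 members higher and 3 lower, beside 15.2% and 16.8% of all that passed, and 2-fold left miR-335 and miR-877, beside 8.8% and 4%. With no signal minimum the members' calls were unchanged in number, beside 18.3% and 19.8% of 197 detected miRNAs. The median log2 ratio was 0.26 over the 9 members detected on both arrays and -0.07 over all 150 such miRNAs. With quantile normalization these medians were -0.002 and -0.09. From spots 1 to 3 alone they were -0.04 and -0.04, and from spots 7 to 9 alone 0.69 and -0.01. The median was 0.20 over the 10 members and 0.01 over all 349 probes, most of them not detected on both.

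The calls of the members were also counted under other scalings between the arrays. Without normalization 5 members were called higher and 0 lower, beside 66.4% and 6.25% of all that passed. Scaling to 5S rRNA gave 6 higher and 0 lower, beside 75.8% and 1.52%. Median scaling gave 2 and 4, beside 13.8% and 64.2%, and scaling to the 75th percentile gave 4 and 4, beside 22.4% and 48%. Without normalization miR-877 was still lower, at -0.45, but its signal of 315 missed the minimum. Subtracting the mismatched control median in place of the modelled background gave 4 and 1, beside 25.4% and 22.8%. There all 3 lower members had lower ratios than before (miR-877 -1.69, miR-342-5p -1.15 and miR-378 -0.77), and the calls of miR-342-5p and miR-378 were lost because their signals of 396 and 386 fell under 400. The ratio of a member is given below with its range, single values or a count of settings over 14 other settings of the ratio. Among these were the authors' processed signal and single blocks of spots.

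**Figure D1:**
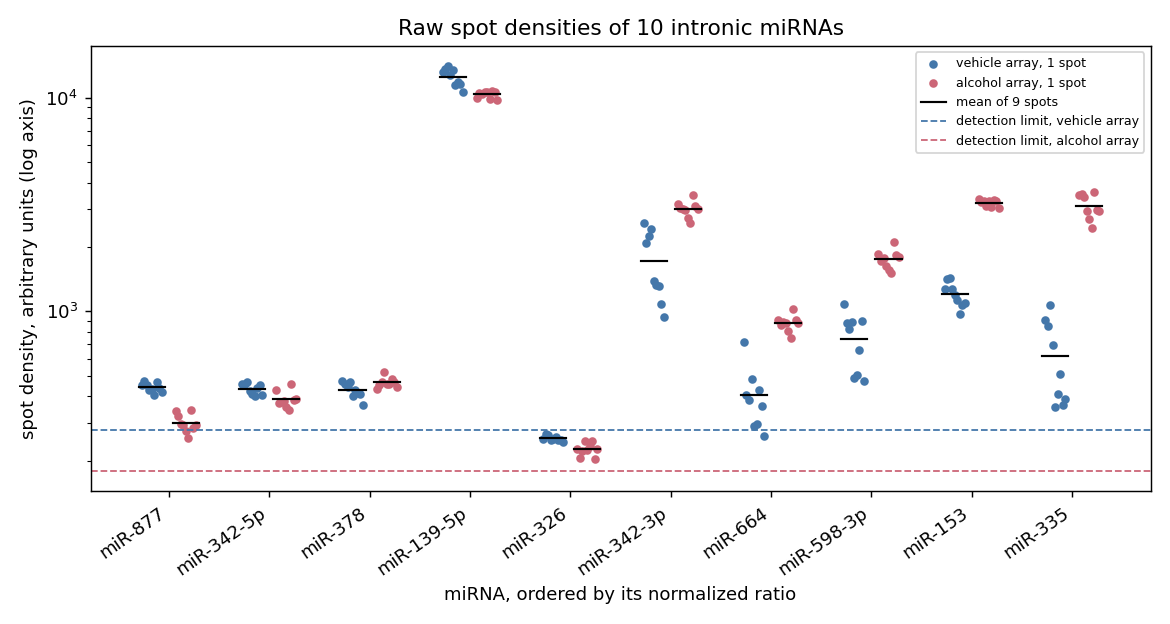
Raw density of each of the 9 repeat spots (points) and their mean (bar) for 10 intronic miRNAs on the vehicle and the alcohol array, on a log axis in arbitrary units, with each array's detection limit dashed. The spots of miR-335, miR-153, miR-598-3p, miR-664 and miR-342-3p are all brighter in the alcohol sample, the spots of miR-877 are all dimmer, and those of miR-326 lie below the limit in the vehicle sample.

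miR-335, hosted by the imprinted gene Mest, had the largest ratio of the members. On the vehicle array its 9 spots ran from 357 to 1070 with a median of 508, and in the alcohol sample from 2459 to 3623 with a median of 2982. No spot of either array fell within the range of the other. The log2 ratio was 1.90 ± 0.68 (SD over 9 spots), a 3.72-fold higher normalized signal in the alcohol sample. Its vehicle spots were themselves widely spread, and the ratio of single spots ran from 0.91 to 2.68. It stayed above 1.3-fold in each of 14 other settings, between 1.40 and 3.12.

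miR-153, which is transcribed with the vesicle protein gene Ptprn2 and is abundant in neurons, was the steadiest of the higher members. Its spots ran from 969 to 1433 in the vehicle sample, with a median of 1196, and from 3042 to 3337 in the alcohol sample, with a median of 3272. The arrays did not overlap. The log2 ratio was 0.77 ± 0.21 (SD over 9 spots), or 1.71-fold. It remained positive in all 14 other settings and passed 1.3-fold in 13, the exception being median scaling at 0.34.

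miR-598-3p and miR-664 were higher by amounts close to their scatter. Spots of miR-598-3p, from the Xkr6 locus, ran from 470 to 1084 with a median of 831 in the vehicle sample and from 1505 to 2111 with a median of 1771 in the alcohol sample. Its log2 ratio was 0.58 ± 0.53 (SD over 9 spots), and 8 of 9 spots were higher in the alcohol sample after normalization. The raw densities of the arrays were thus apart, while the normalized ratio of 1 spot was -0.06.

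Spots of miR-664 ran from 262 to 718 in the vehicle sample, with a median of 385 and 8 of 9 above the limit. They ran from 750 to 1030 in the alcohol sample, with a median of 885. Its log2 ratio was 0.54 ± 0.59 (SD over 9 spots), and 8 of 9 spots were higher. In both miRNAs the raw ranges did not overlap, and the SD of the normalized ratio was about as large as the ratio itself. Each ratio was above 0 in all 14 other settings, and 9 of these for miR-598-3p and 12 for miR-664 passed 1.3-fold.

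miR-877, the mirtron of Abcf1, was the member with the lowest ratio. Its spots ran from 407 to 473 with a median of 436 in the vehicle sample, and from 255 to 345 with a median of 295 in the alcohol sample. The arrays did not overlap. The log2 ratio was -1.35 ± 0.12 (SD over 9 spots), which left 39.1% of the vehicle signal. It was below 0 in all 14 other settings, from -2.07 in the authors' processed signal to -0.14 with scaling to 5S rRNA. Above the mismatched control median, its mean density was 200.1 in the vehicle sample and 156 in the alcohol sample.

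For miR-378 the raw densities did not show a decrease. This miRNA of the Ppargc1b locus is known for roles in energy metabolism. Its spots ran from 366 to 474 with a median of 430 in the vehicle sample and from 432 to 519 with a median of 458 in the alcohol sample, so the ranges overlapped and the alcohol median was the higher one. Above the mismatched control median the mean density was 188 for vehicle and 320 for alcohol. The normalized log2 ratio was -0.64 ± 0.18 (SD over 9 spots), with all 9 spots below 0. Without normalization between the arrays it was 0.39, and with 5S rRNA scaling 0.69, both past 1.3-fold in the other direction. In 12 of the 14 other settings it was past 1.3-fold lower, down to -1.15 in the authors' processed signal.

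miR-139-5p, the member of the phosphodiesterase gene Pde2a, was bright on both arrays. Its spots ran from 10600 to 14031 with a median of 12780 in the vehicle sample and from 9704 to 10790 with a median of 10522 in the alcohol sample, and 1 vehicle spot fell within the alcohol range. The log2 ratio was -0.27 ± 0.13 (SD over 9 spots), below 0 in 9 of 9 spots and within 1.3-fold. It was -1.48 with median scaling and 0.04 with 5S rRNA scaling.

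miR-326, of the beta-arrestin gene Arrb1, was near background. Its spots ran from 244 to 266 in the vehicle sample, none above the limit, and from 204 to 248 in the alcohol sample, all above that array's lower limit. Its vehicle signal thus did not count as detected. On the loess scale its alcohol signal was 1.1-fold the lowest detected vehicle signal, 136.7. This sets no lower limit on the ratio, since miR-204, also undetected there, had a vehicle signal of 219.7 on that scale. The log2 ratio of miR-326 as measured was 0.14 ± 0.19 (SD over 9 spots), with 3 of 9 spots below 0. It was -0.92 with median scaling and 0.96 in the authors' processed signal. Its seed partner miR-330 was detected on neither array, with mean densities of 244 and 155.

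**Figure D2:**
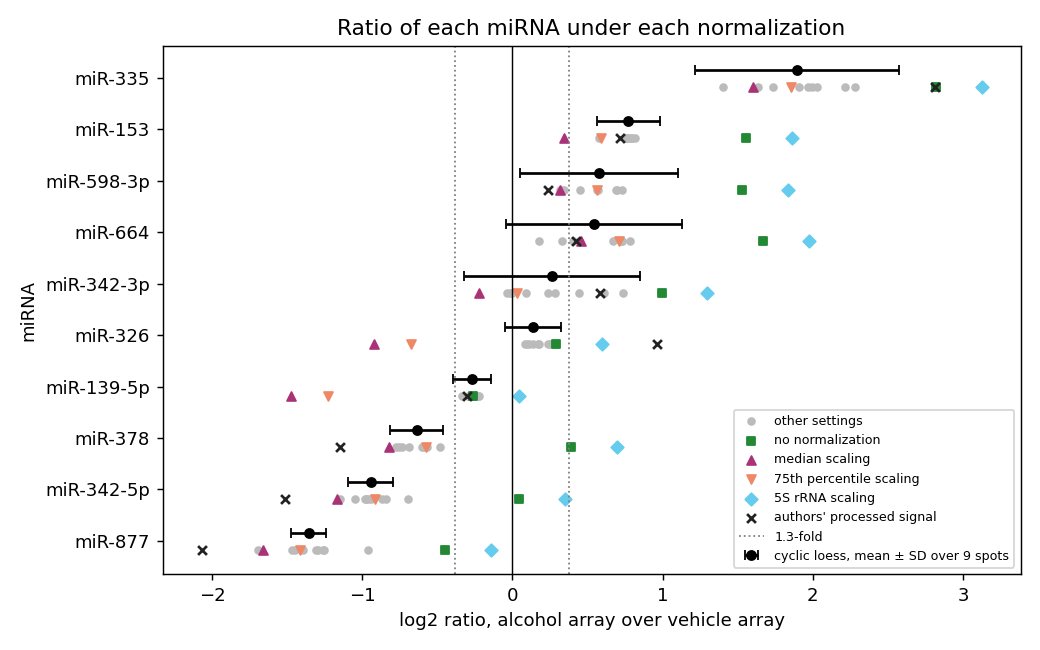
Log2 ratio of alcohol over vehicle for each miRNA after cyclic loess (black, mean ± SD over 9 repeat spots) and under 14 other settings (coloured marks and grey points), with 0 and 1.3-fold marked. The ratios of miR-335 and miR-153 are above 0 and that of miR-877 below 0 throughout, while miR-378 and miR-342-5p lie on both sides of 0.

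The miR-342 hairpin gives a mature miRNA from each arm, and the array carried both. Both arms are cut from the same precursor, and the difference between their ratios is not changed by any constant scaling of an array. The hairpin (99 bases, chr6:133329655-133329753, plus strand) is shown with the 5p arm and then the 3p arm in capitals.
Mir342 hairpin: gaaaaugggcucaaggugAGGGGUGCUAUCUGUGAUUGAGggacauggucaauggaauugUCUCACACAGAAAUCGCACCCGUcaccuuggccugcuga
Spots of the 5p arm ran from 403 to 465 with a median of 439 in the vehicle sample and from 347 to 459 with a median of 382 in the alcohol sample, and the ranges overlapped. Above the mismatched control median the mean density of the 5p arm was 194 for vehicle and 244 for alcohol, the opposite order to the raw densities. Spots of the 3p arm ran from 939 to 2581 with a median of 1388 in the vehicle sample and from 2591 to 3515 with a median of 3010 in the alcohol sample. The 3p ranges did not overlap, though the brightest vehicle spot and the dimmest alcohol spot almost met.

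The normalized log2 ratio was -0.94 ± 0.15 for the 5p arm and 0.26 ± 0.59 for the 3p arm (SD over 9 spots each). The 5p ratio minus the 3p ratio was -1.21 ± 0.54, a 2.31-fold shift between the arms, and it was below 0 at 9 of 9 spot positions. With no normalization or any constant scaling it was -0.95 over all 9 spots, and it lay between -0.87 and -2.10 over the 14 other settings. The direction of the single arms was less settled. The 5p arm was at 0.05 without normalization and 0.35 with 5S rRNA scaling, and the 3p arm was at -0.22 with median scaling and 1.3 with 5S rRNA scaling.

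Most of the spread in the arm difference lay in the 3p arm in the vehicle sample. Repeat spots sit in 3 blocks of array rows with 3 spots each. The 3p arm in the vehicle sample had a mean density of 2303 in the first block, 1718 in the second and 1114 in the third, against 3085, 2770 and 3206 in the alcohol sample. The 5p probe had 461, 412 and 432 in the vehicle sample. With the values of all 9 spots on 1 scale, the arm difference was -0.78 ± 0.26 in the first block, -1.05 ± 0.45 in the second and -1.79 ± 0.28 in the third (SD over 3 spots each). Without normalization it was -0.53, -0.79 and -1.53 in the same order. Above the mismatched control median, the 5p arm made up 9.73% of both arms in the first vehicle block and 7.78% in the first alcohol block. In the third block these shares were 18.2% and 7.96%. The sign was thus the same in each block, and the size changed by about 1 log2 unit between the first and the third.

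**Figure D3:**
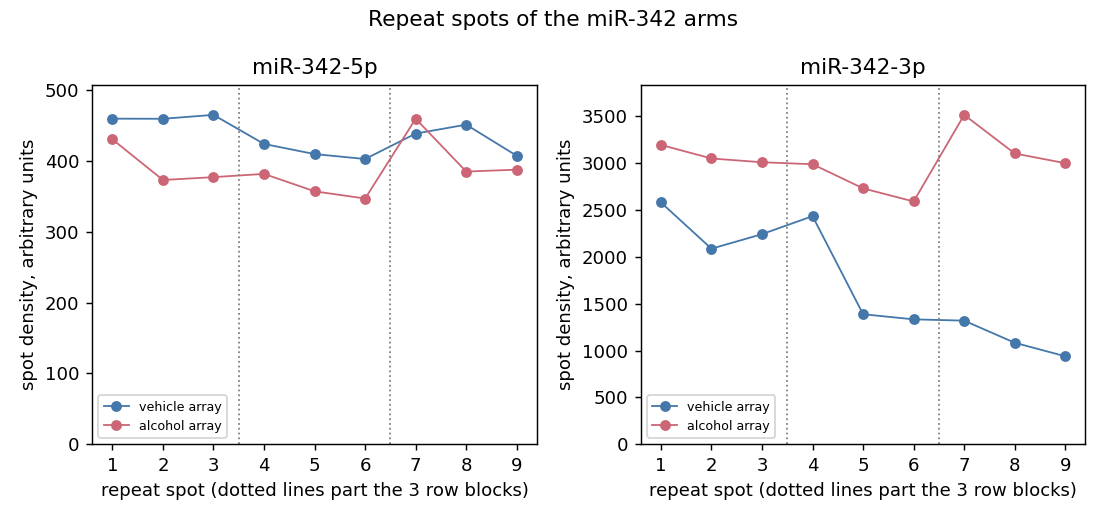
Raw density of each repeat spot, in arbitrary units, of the 5p arm (left) and the 3p arm (right) of miR-342 on the vehicle and the alcohol array. The 3p arm falls across the vehicle array from 2581 at the first spot to 939 at the last, while the 5p arm stays between 403 and 465 there.

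The same unevenness touched other members. On the vehicle array the coefficient of variation between spots was 44.0% for miR-335, 36.3% for miR-342-3p, 34% for miR-664 and 29.8% for miR-598-3p, and it was between 2.84% and 13.2% for the other 6. On the alcohol array it was at most 13.2% for any member. These 4 were 4 of the 17 miRNAs, among 150 detected on both arrays, that varied by more than 25% in the vehicle sample. With each block of spots normalized on its own, a different scale from that of the arm difference above, the ratio in the first block was 1.40 for miR-335, 0.35 for miR-598-3p, 0.18 for miR-664 and -0.04 for miR-342-3p, and in the third block 2.28, 0.69, 0.73 and 0.74. Calls on single blocks gave 2 higher and 3 lower members in the first (beside 20.6% and 21.4% of all that passed), 4 and 1 in the second (24.6% and 18.6%) and 5 and 3 in the third (30.6% and 22.6%). In the second block miR-877 (-1.31) and miR-342-5p (-0.84) stayed past 1.3-fold and missed the call through signals of 390.1 and 388. The higher calls of miR-598-3p and miR-664 were therefore not made on the first block, whereas that of miR-335 was made on every block. Spots also differed within a block. The vehicle spots of miR-664 in the first block were at 718, 407 and 385. On the scale of all 9 spots their ratios were -0.61, 0.37 and 0.53.

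The members were also ordered by their base composition. The GC share of the target ran from 30.4% in miR-335 to 66.7% in miR-326. All 4 members under 50% GC (miR-335, miR-153, miR-664 and miR-598-3p) had a ratio above 0, and of the 6 members with 50% or more, 4 had a ratio below 0 and the exceptions were miR-342-3p and miR-326. Across the 10 members Pearson's r between GC share and log2 ratio was -0.76 and Spearman's rho -0.77. Over the 9 detected on both arrays r was -0.90, and without the extremes miR-335 and miR-877 it was -0.72 over 7. Without normalization r over the 10 was -0.87.

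The relation was not confined to these members. Over the 141 other miRNAs detected on both arrays r was -0.37, and -0.21 without normalization. The points share 2 arrays, and some members were picked for extreme ratios, so these coefficients describe the arrays and carry no p. Within the miR-342 hairpin the arms differed little in GC share, with 50% in the 5p arm and 52.2% in the 3p arm, while their ratios differed by -1.21. The arm with the lower GC share had the lower ratio, opposite to the order across the members.

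**Figure D4:**
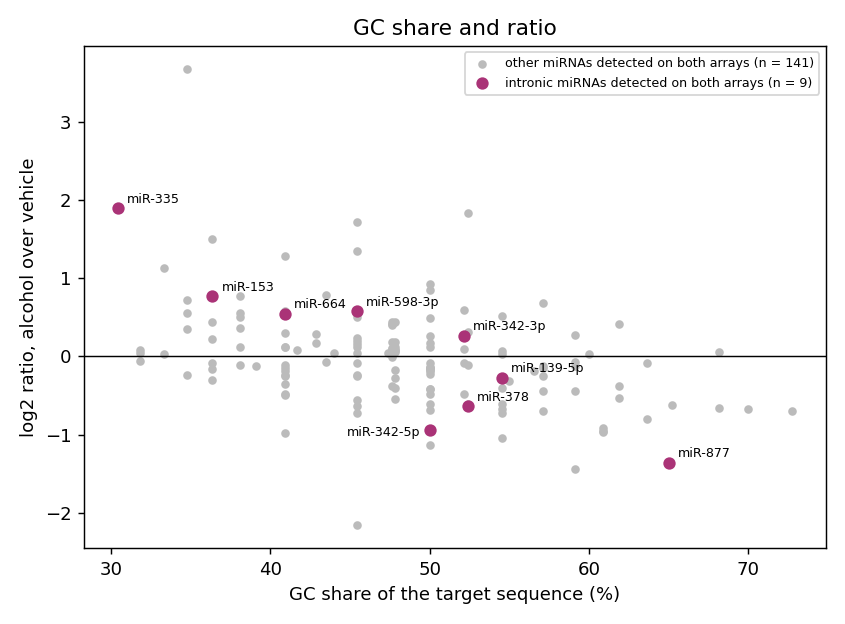
GC share of the target sequence (%) against the log2 ratio of alcohol over vehicle after cyclic loess for 9 intronic miRNAs (named points) and the other 141 miRNAs detected on both arrays (grey). The named points fall from 1.90 at 30.4% GC to -1.35 at 65.0% GC.

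For comparison, a list of 51 other miRNA names known to lie in protein-coding genes was used, of which 50 were on the array. RefSeq placed 35 of these in a gene on the same strand, out of 43 matched. Of the 50, 26 passed the filter, 5 were called higher, 8 lower and 13 neither, beside the 26.4% higher and 20.8% lower over all 125. The median log2 ratio was -0.11 over the 28 detected on both arrays and 0.03 over the 50. Among those that passed the filter and were detected on both arrays, miR-30e of the Nfyc gene (1.28), miR-218 of the Slit genes (0.51) and miR-107 of Pank1 (0.44) had the highest log2 ratios. The lowest were those of miR-346 of Grid1 (-0.97), miR-324-5p of Acadvl (-0.95) and miR-330* of Eml2 (-0.91). The other 2 called higher, miR-204 of Trpm3 and miR-338 of Aatk, named after their values were seen, were detected in the alcohol sample only. As measured on the loess scale they were 4.54-fold and 3.09-fold higher there. The lowest log2 ratio of a single spot was 1.69 for miR-204 and 1.23 for miR-338. Without normalization miR-346, miR-324-5p and miR-330* were at 0.04, 0.15 and 0.20, as miR-342-5p also moved to 0.05. After cyclic loess the ratios of this list lay on both sides of 0, as did those of the members. On that scale the median over all 349 probes was 0.01, so this does not set intronic miRNAs apart.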

How the data were processed

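Small RNA from rat NAc was hybridized to 1-colour Cy3 miRNA arrays (LC Sciences), 1 for vehicle and 1 for alcohol, grouped by their source labels. The authors deposited the spot intensity as mean pixel density without background subtraction, and a processed intensity per probe, for which the series text names a cyclic normalization. The software behind either is not given in the sources used here. Spots were corrected with normexp (offset 50, fitted on the foreground, since no background column exists) in limma 3.58.1 under R 4.3.3. Log2 values were averaged over 9 spots and normalized with cyclic loess (span 0.7, 3 iterations) over 349 probes. Ratios were computed with Python 3.11.15, numpy 2.4.6, pandas 2.3.3 and scipy 1.17.1, and figures with matplotlib 3.10.9. The SD of a ratio pairs spots at the same position. The number of arrays limits the precision. Steps were tested on simulated arrays that shared a control baseline and had no unevenness between row blocks. The test therefore did not cover the unlike baselines and the uneven vehicle spots of the real arrays.

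The members, lists and settings were chosen with earlier results of these data known, and the detection rule (median absolute deviations scaled by 1.4826) had been set after values were seen. All members were named, with probes of the same hairpin or seed, and from the comparison list the 3 highest and 3 lowest ratios of miRNAs that were detected in both samples and whose brighter normalized signal reached 400. Host genes came from RefSeq GRCr8 by overlap, and 289 of 349 target sequences matched. The array files name no build. Of 14 other settings of the ratios 10 were planned. The mismatched control baseline and the 3 row blocks were added after seeing the data.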

Additional observations from a re-analysis of the deposited data

How the results depend on the processing

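No paired analysis was possible because vehicle and alcohol are 1 array each, and no replicate could be left out. Shares over all miRNAs that passed are given in brackets, higher and then lower. The 4 higher and 3 lower members (26.4% and 20.8%) became 5 and 0 without normalization (66.4% and 6.25%). They were 6 and 0 with 5S rRNA scaling (75.8% and 1.52%) and 2 and 4 with median scaling (13.8% and 64.2%). The 75th percentile gave 4 and 4 (22.4% and 48%). Counts were 2 and 3 at 1.5-fold (15.2% and 16.8%) and 1 and 1 at 2-fold (8.8% and 4%). With no signal minimum they were 4 and 3 (18.3% and 19.8%). The lower count was 1 with the mismatched control baseline (22.8% of all that passed) and in spots 4 to 6 (18.6%), and the higher count was 2 in spots 1 to 3 (20.6%). These settings and spots 7 to 9 were chosen after seeing the data. In both of the former all 3 lower members kept ratios past 1.3-fold, and the lost calls had signals under 400. For the ratios that moved with the scaling or in spots 1 to 3, the cause was not tested.

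The median log2 ratio of the 10 members, 0.20, was 0.995 with 5S rRNA, 0.69 without normalization, -0.27 with the 75th percentile and -0.52 with median scaling, while that of all 349 probes was 0.09, -0.22, -1.18 and -1.43. Over miRNAs detected on both arrays the medians in the same order were 1.3, 0.99, 0.03 and -0.22 for 9 members. For all 150 they were 0.87, 0.57, -0.40 and -0.65. With quantile normalization the medians were -0.002 for the 9 members and -0.09 for all 150. They were -0.01 and -0.05 with the first 5 spots, and -0.04 and -0.04 in spots 1 to 3. With the last 4 spots they were 0.61 and -0.02, against 0.69 and -0.01 in spots 7 to 9. The members' median was thus close to that of all 150 in some settings and above it in others. The arm difference of miR-342 was -2.10 in the authors' processed signal and kept within its spot SD of -1.21 in the other 13 settings. The correlation with GC share, -0.76, was -0.87 without normalization and under the median, 75th percentile and 5S rRNA scalings, -0.59 in the authors' signal and -0.90 over the members detected on both arrays. Of the called members, miR-342-5p turned to 0.047 without normalization and 0.35 with 5S rRNA, and miR-378 to 0.39 and 0.69. The other 5 called members kept their sign in all 14 settings. For miR-326 the vehicle signal was not detected, which no setting can resolve.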

Other observations

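The array also carried the opposite arm of 3 members. miR-139-3p was detected on both arrays, with a mean density of 344 ± 26.6 in the vehicle sample and 308 ± 38.4 in the alcohol sample (SD over 9 spots), and a normalized log2 ratio of -0.66 ± 0.30 beside -0.27 ± 0.13 for miR-139-5p. Its normalized signal was below 400 on both arrays, and its ratio was 0.13 without normalization. miR-378* and miR-598-5p were detected on neither array, with mean densities of 246 and 244 in the vehicle sample and 160 and 152 in the alcohol sample. Thus for miR-378 and miR-598 a single arm was measured above background, while both arms of miR-139 and of miR-342 were.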
